A study of Mus musculus with 6 samples.

Results

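Carbonic anhydrases were examined through 10 genes of the family, *Car2*, *Car3*, *Car4*, *Car7*, *Car8*, *Car9*, *Car10*, *Car11*, *Car12* and *Car14*. Their entries were taken by gene symbol from a table of 24207 loci, and each symbol was found at 1 entry. The table came from RNA-seq of whole male mouse embryos at E9.5, 3 of them Smchd1+/+ (wildtype) and 3 Smchd1MommeD1/MommeD1 (mutant). Smchd1 is a chromatin protein needed for X inactivation, and MommeD1 is a mutant allele of its gene from a chemical mutagenesis screen, carried here on both chromosomes in the mutant and on neither in the wildtype. The labels give the background strain as C57Bl6/J x FVB/n in both groups, whereas the study's text describes a backcross to a different strain. The mutation is present in every cell of the embryo, so no promoter or cell type limits it.

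Each gene had 1 FPKM value per genotype, pooled by the authors over 3 embryos. FPKM is the number of sequenced fragments assigned to a gene, divided by transcript length and by library size, so levels can be compared between genes. With 1 pooled value per genotype, no spread between embryos can be given here and no new test across embryos could be run. The authors' own test results, which the table also holds, were left out by choice, so no p-value is given. The depth is unknown because the table holds no read counts. Differences are given as log2((mutant + 0.1)/(wildtype + 0.1)), so negative values are lower in the mutant, and the fold changes are on that same scale. The addition of 0.1 FPKM understates the change of low genes. The members were chosen by gene family, with their pooled FPKM values and mutant-to-wildtype contrast in this table already known, so their changes are a description and not a test.

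Carbonic anhydrases are zinc enzymes that convert carbon dioxide and water to bicarbonate and a proton, and back. Cytosolic forms act inside cells such as red blood cells, membrane-bound forms have their active site on the outer surface, and a further group, the related proteins, lack part of the zinc-binding site needed for catalysis. In tissues they serve the transport of carbon dioxide, the movement of ions and fluid, and the control of pH, together with carriers of bicarbonate, protons and lactate.

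*Car4* was the member that differed most between the genotypes. Its transcripts were at 10.3 FPKM in the mutant against 24.8 FPKM in the wildtype, 2.39-fold lower in the mutant. The other abundant members, *Car2* and *Car14*, differed by 1.12-fold and 1.14-fold and in opposite directions. In whole embryos fewer cells of a type and less RNA per cell cannot be told apart. Loci were called expressed where the mean of the genotypes reached 1 FPKM. Of the 7 expressed members, 6 lay within 1.5-fold of equality, and *Car4* was the 1 member at least 2-fold lower. No member was at least 2-fold higher. Among all 11863 expressed loci with a gene symbol, 0.337% were at least 2-fold lower and 0.868% at least 2-fold higher in the mutant. At 1.5-fold these shares were 1.06% lower and 3.22% higher. Since the members were picked with this contrast known, nothing is read from that comparison. *Smchd1* itself was at 2.12 FPKM in the mutant against 34.0 FPKM in the wildtype (log2 ratio -3.94), in the direction its labels give.

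**Figure D1:**
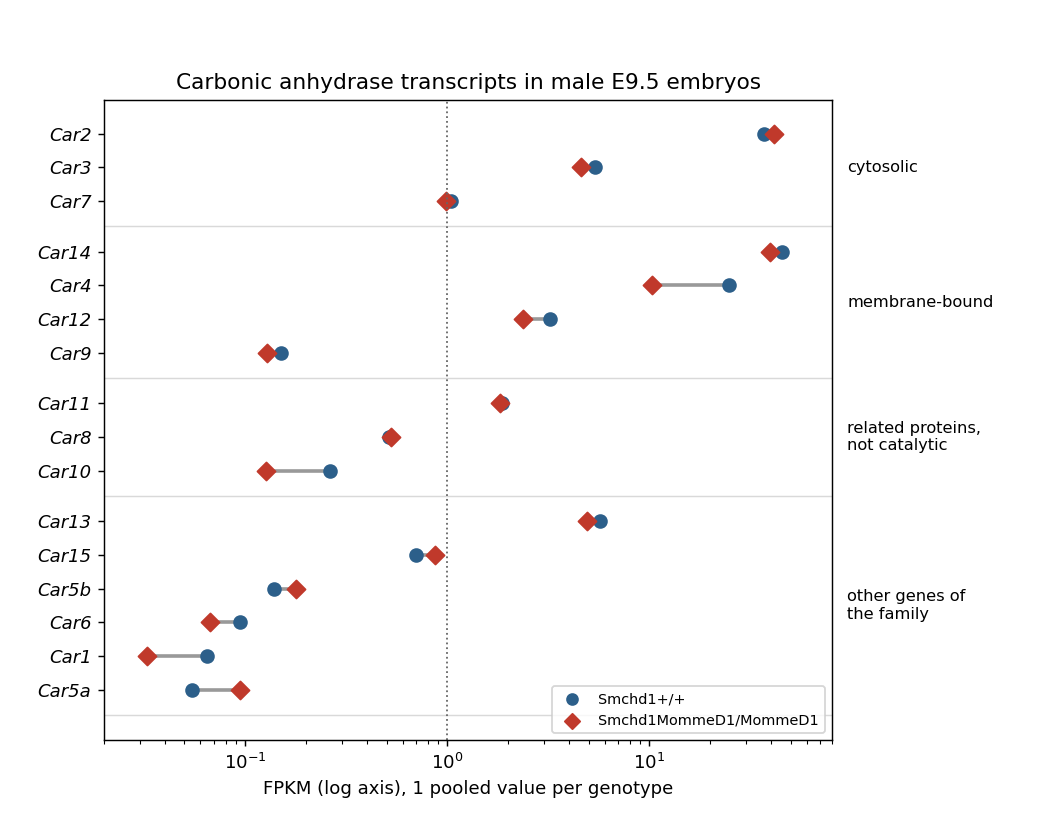
Level of each carbonic anhydrase gene in FPKM on a log axis, with a blue circle for the pooled Smchd1+/+ value and a red diamond for the pooled Smchd1MommeD1/MommeD1 value, and no error bars because there is 1 value per genotype. The wide gap of *Car4*, 10.3 against 24.8 FPKM, stands beside near-overlapping points for *Car2*, *Car14*, *Car11* and *Car8*, and the dotted line marks 1 FPKM.

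The regulatory sequence before each membrane-bound gene is shown because this class held the member that differed most. RefSeq start sites on GRCm38.p6, the same assembly as the MM10 build of the table, were available for 7 of the 10 members, at 11 start sites. Each line gives the 250 bases before 1 start, on the strand of the gene. The RefSeq span of *Car12* begins further out, at 66712296, and that of *Car14*, on the minus strand, at 95905117. The windows of these 2 genes thus lie inside the spans and not before their outermost ends. The letters ACGTG, the core of the element bound by hypoxia-inducible factors, were searched on both strands and are in capitals, as CACGT where the match is on the other strand.
*Car4*, chr11:84957504-84957753, plus strand: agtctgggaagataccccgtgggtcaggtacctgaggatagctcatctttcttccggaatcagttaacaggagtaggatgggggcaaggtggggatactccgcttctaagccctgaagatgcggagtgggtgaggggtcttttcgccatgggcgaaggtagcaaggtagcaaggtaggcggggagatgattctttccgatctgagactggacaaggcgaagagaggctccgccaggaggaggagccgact
*Car14*, chr3:95904686-95904935, minus strand: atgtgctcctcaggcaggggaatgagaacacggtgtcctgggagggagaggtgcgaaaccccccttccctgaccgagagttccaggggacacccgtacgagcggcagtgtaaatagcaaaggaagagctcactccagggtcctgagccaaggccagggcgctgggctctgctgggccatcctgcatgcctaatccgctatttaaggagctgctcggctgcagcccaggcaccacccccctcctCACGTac
*Car12*, chr9:66713436-66713685, plus strand: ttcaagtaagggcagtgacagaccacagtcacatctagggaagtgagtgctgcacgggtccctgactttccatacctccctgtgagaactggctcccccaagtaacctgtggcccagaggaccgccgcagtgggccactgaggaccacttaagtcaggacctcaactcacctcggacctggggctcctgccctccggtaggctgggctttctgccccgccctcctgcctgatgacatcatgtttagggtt
*Car9*, chr4:43506776-43507025, plus strand: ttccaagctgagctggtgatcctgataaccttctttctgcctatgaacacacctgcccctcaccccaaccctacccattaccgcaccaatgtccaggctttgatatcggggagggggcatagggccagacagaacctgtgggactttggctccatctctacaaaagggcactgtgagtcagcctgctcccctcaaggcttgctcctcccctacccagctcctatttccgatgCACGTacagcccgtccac

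These letters were found before *Car9*, with their first base at position -18 from the start, and before *Car14*, at -7. They were not in the windows of *Car4* and *Car12*. Of all 32851 windows of this length, 16.6% held them, and among the members the remaining match was at 1 of the start sites of *Car10*. AGATAA, 1 spelling of a GATA site, was found on either strand in 9.99% of all windows and, among the members, in 1 window of *Car7*. Other spellings of that site were not searched. TATAAA, the letters of a TATA box, was searched on either strand and at any position of the window. It was found in 12.4% of all windows and in 0 of the 11 of the members. The *Car4* window had 11 CpG dinucleotides and a GC content of 56.4%, against medians of 6 and 52.4% over all windows. Such matches describe the letters only and do not show that a factor binds.

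*Car4* encodes an enzyme tethered to the outer cell surface by a lipid anchor and known from capillaries of lung and brain and from kidney. It lies on chromosome 11 of MM10 from 84957754 to 84966054, as a locus with no other entry and with no exonic base shared with another gene in GENCODE M21. Its log2 ratio of -1.26 was matched or passed by 24 of the 11863 loci (*Car4* included), or 0.202%. Among the 4371 loci with a mean within 2-fold of its own, 7 were as low, again with *Car4* included. In this band the central range from the 5th to the 95th percentile of the log2 ratio ran from -0.26 to 0.28. The 12 other expressed loci within 500 kb of *Car4* had log2 ratios between -0.38 and 0.24, so none of these neighbours came near it. Directly next to it, *Usp32* was at 4.81 FPKM in the mutant against 5.42 FPKM in the wildtype (log2 ratio -0.17). On the other side, the locus shared by *Znhit3*, *Pigw* and *Myo19* held values of 25.1 and 29.0 FPKM for *Znhit3*, the most abundant of them (log2 ratio -0.21). Under 1 FPKM in this window, *D630032N06Rik* was at 0.0413 FPKM in the mutant against 0.313 FPKM in the wildtype (log2 ratio -1.55). The authors' program had too few alignments there for its test. The other loci under 1 FPKM in the window were higher in the mutant or at 0 in both genotypes.

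*Car14*, which encodes a transmembrane enzyme, was the most abundant member in wildtype embryos. Its transcripts were at 45.3 FPKM there and at 39.7 FPKM in mutant embryos, a log2 ratio of -0.19. Its level exceeded that of *Car4* by 1.82 times in wildtype and 3.85 times in mutant embryos. The libraries did not record strand, and 26.0% of the exonic bases of *Car14* are shared with *Aph1a*, a neighbour on the opposite strand that encodes a gamma-secretase subunit. *Aph1a* was at 63.5 FPKM in the mutant against 61.6 FPKM in the wildtype, so the *Car14* values are uncertain by whatever reads of the overlap were assigned to the wrong gene.

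*Car12* and *Car9* encode transmembrane enzymes known as hypoxia-induced genes, *Car9* above all in tumours. *Car12* was at 2.37 FPKM in the mutant against 3.20 FPKM in the wildtype, 1.34-fold lower, and 2.51% of loci were as low or lower. Its log2 ratio of -0.42 was the next lowest after *Car4* among the 7 expressed members. *Car9* was at 0.128 FPKM in the mutant against 0.151 FPKM in the wildtype, and the authors' program had too few alignments there to run its test. In both genotypes *Car9* was thus the least or next to least abundant of the members. A noncoding gene on the opposite strand, *Gm12454*, shares 7.17% of the exonic bases of *Car9*.

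*Car2*, the cytosolic enzyme known from red cells, osteoclasts and kidney, was the most abundant member in the mutant. Its transcripts were at 41.3 FPKM in the mutant against 36.9 FPKM in the wildtype, a log2 ratio of 0.16, and 18.7% of all loci were as high or higher. It was the 1 expressed member that was higher in the mutant. *Car2* and *Car14* changed places at the top of the order, which was *Car14*, *Car2*, *Car4* in wildtype and *Car2*, *Car14*, *Car4* in mutant embryos. Whether *Car2* and *Car14* differ in level cannot be said without the spread between embryos. The ratio of *Car2* to *Car4* was 1.49 in wildtype and 4.0 in mutant embryos.

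*Car3*, a cytosolic form of low activity known from muscle and fat, was at 4.58 FPKM in the mutant against 5.36 FPKM in the wildtype (log2 ratio -0.22). *Car2* and *Car3* are neighbours on chromosome 3 of MM10, with *Car3* from 14863538 to 14872506 and *Car2* from 14886298 to 14900878. *Car1* and *Car13*, cytosolic forms that were not among the 10 members, lie in the same stretch. *Car13* was at 4.93 FPKM in the mutant against 5.67 FPKM in the wildtype (log2 ratio -0.20), close to *Car3* in both level and ratio. *Car1*, known from adult red cells, was at 0.0325 and 0.0649 FPKM. The adjacent genes of this stretch thus ranged from hardly detected to among the most abundant of the family.

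*Car7*, a cytosolic form known from brain, was at 0.979 FPKM in the mutant against 1.04 FPKM in the wildtype (log2 ratio -0.08). Its mean of 1.01 FPKM was just above the minimum used for counting, whereas that of *Car8*, at 0.520 FPKM, was the nearest below it. The *Car7* locus as given in the table runs from 104446719 to 104624396 on chromosome 8 and holds 6 entries. Of these *Nae1* was far more abundant, at 37.9 FPKM in the mutant against 44.2 FPKM in the wildtype, although it shares no exonic base with *Car7* in GENCODE M21.

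The related proteins were the lowest class. *Car11*, which encodes a secreted protein known from brain, was at 1.82 FPKM in the mutant against 1.87 FPKM in the wildtype (log2 ratio -0.03). *Car8*, known for its part in Purkinje cells of the cerebellum, was at 0.524 and 0.517 FPKM (log2 ratio 0.02). These were the members closest to equality between the genotypes. *Car10*, whose secreted product binds neurexins on neurons, was at 0.127 FPKM in the mutant against 0.262 FPKM in the wildtype. Its log2 ratio of -0.67 was the lowest after *Car4* over all 10 members, but the authors' program had too few alignments there for its test, and loci with a mean of 0.1 to 1 FPKM had a 5th percentile of -0.67 themselves.

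**Figure D2:**
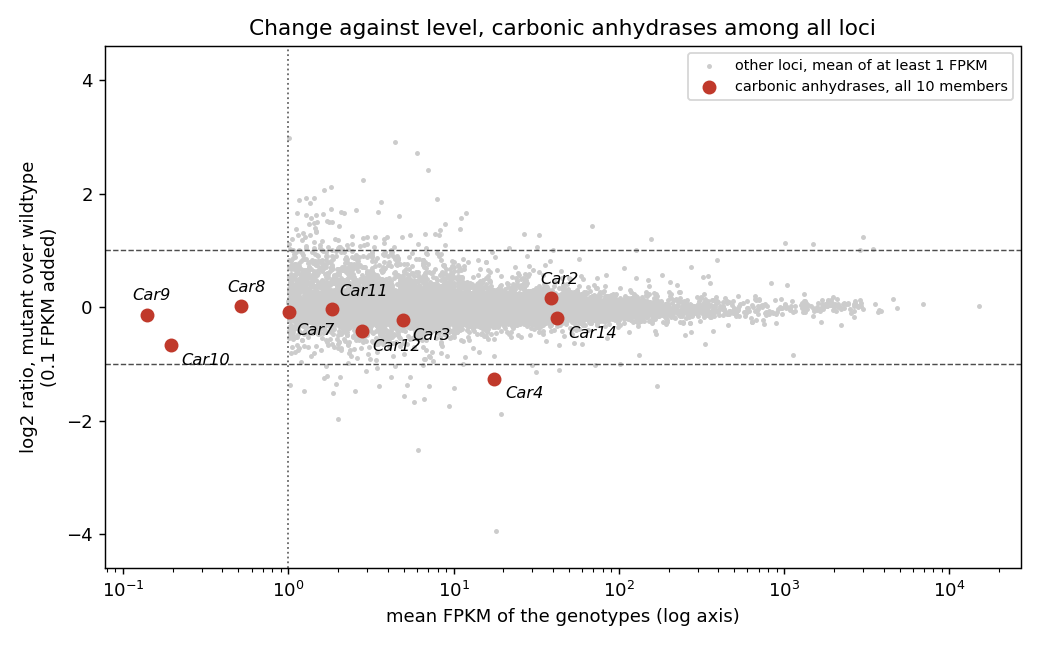
Log2 ratio of mutant over wildtype (0.1 FPKM added) against the mean FPKM of the genotypes on a log axis, with grey points for the expressed loci (mean of 1 FPKM or more, with a gene symbol) and red points for the 10 carbonic anhydrases. *Car4* lies below the dashed line that marks 2-fold at -1, the other members lie between the dashed lines, and *Car8*, *Car9* and *Car10* lie left of the dotted line at 1 FPKM.

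Summed over the 10 members, transcripts were at 101.8 FPKM in the mutant against 119.5 FPKM in the wildtype, a log2 ratio of -0.23. *Car4* accounted for 82.2% of the difference of 17.7 FPKM. Without *Car4*, the sums were 91.5 and 94.7 FPKM (log2 ratio -0.05). *Car2*, *Car4* and *Car14* together held 89.7% of the sum in mutant and 89.6% in wildtype embryos. The share of *Car4* was 10.1% in mutant and 20.8% in wildtype embryos, and that of *Car2* was 40.5% and 30.9%.

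By class, the 4 membrane-bound members summed to 52.5 FPKM in the mutant against 73.5 FPKM in the wildtype (log2 ratio -0.49). Without *Car4* these sums were 42.2 and 48.7 FPKM (log2 ratio -0.21), with *Car14*, *Car12* and *Car9* each lower in the mutant. The 3 cytosolic members summed to 46.8 and 43.3 FPKM (log2 ratio 0.11), in which *Car2* was higher and *Car3* and *Car7* were lower. The 3 related proteins summed to 2.47 and 2.64 FPKM (log2 ratio -0.10).

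**Figure D3:**
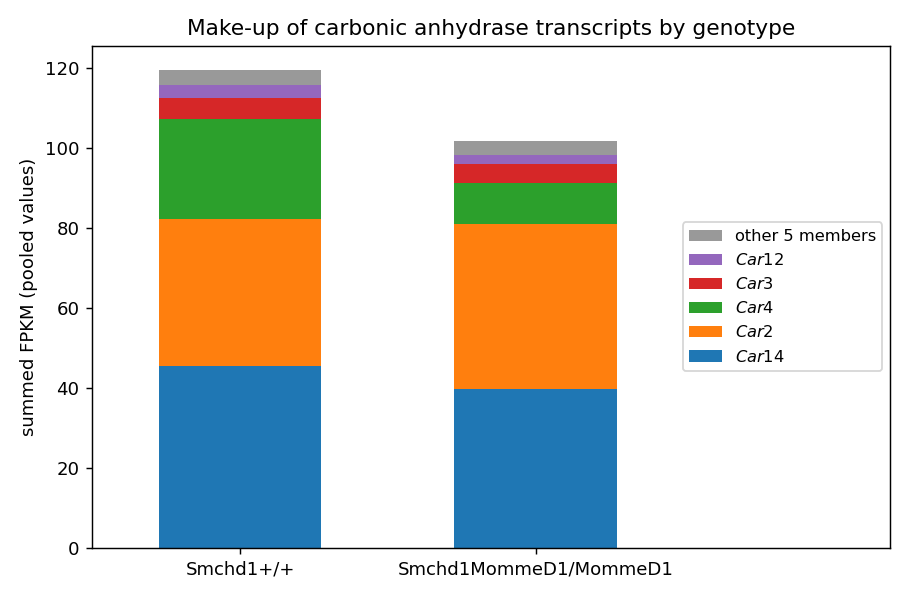
Stacked bars of summed FPKM for the 10 members, 1 bar per genotype from the pooled values, with the 5 most abundant members in colour and the other 5 in grey. The wildtype bar reaches 119.5 FPKM and the mutant bar 101.8 FPKM, and the segment of *Car4* shrinks from 24.8 to 10.3 FPKM while those of *Car2* and *Car14* differ by 1.12-fold and 1.14-fold.

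The median log2 ratio was -0.19 over the 7 expressed members and -0.16 over all 10, beside -0.01 over all 11863 loci. Of the 7, 6 were lower in the mutant, beside 51.8% of all loci. Of the 6 family genes outside the list, *Car13* alone reached a mean of 1 FPKM. *Car15*, which encodes a lipid-anchored enzyme, was at 0.866 FPKM in the mutant against 0.699 FPKM in the wildtype, but 82.0% of its exonic bases are shared with *Gm20518*. *Car5a* and *Car5b*, the mitochondrial forms, and *Car6*, a secreted form of saliva, lay between 0.0545 and 0.177 FPKM.

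Expressed genes that work with carbonic anhydrases stayed within 2-fold. Of 13 bicarbonate transporters, 7 reached a mean of 1 FPKM, with 3 lower, 4 higher and a median log2 ratio of 0.19. The most abundant of them, *Slc4a1*, the chloride and bicarbonate exchanger of red cells, was at 35.6 FPKM in the mutant against 21.5 FPKM in the wildtype (log2 ratio 0.73). Next was *Slc4a7*, a sodium and bicarbonate cotransporter, at 11.4 and 13.6 FPKM (log2 ratio -0.25). Of the 4 higher entries, 1 was shared by *Slc26a6* and *Celsr3*, a gene not on the list, so its value is not that of *Slc26a6* alone. Of 12 proton and lactate transporters, 7 reached that mean, with 5 lower and 2 higher (median -0.11). Among these *Bsg*, a chaperone of lactate carriers, was at 255.5 and 275.9 FPKM, and the lactate carrier *Slc16a3* was at 89.8 and 112.4 FPKM.

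Hypoxia-induced genes were set beside *Car9* and *Car12*. Of 18 listed, 17 had a usable value, all of them expressed, of which 15 were lower and 2 higher in the mutant (median log2 ratio -0.18). None was past 2-fold. *Ldha*, lactate dehydrogenase, was at 1529 FPKM in the mutant against 1830 FPKM in the wildtype, and *Pgk1*, a glycolytic kinase, at 803.9 and 971.5 FPKM. Other genes of that list were far less abundant, down to *Adm* at 1.24 FPKM in the mutant against 1.41 FPKM in the wildtype. *Car9*, at 0.151 FPKM or less, was below every usable gene of the list. Activity of hypoxia-inducible factors was not tested.

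Markers of cell types also differed between the genotypes, and their part in the carbonic anhydrase values was not tested. Red cell markers had 12 entries for 11 of the 12 genes listed, since *Hba-a1* was at 2 loci of near-identical sequence between which reads are hard to assign. All 12 entries were higher in the mutant, 6 of them at least 2-fold, with a median log2 ratio of 0.99 and sums of 16157 FPKM in the mutant against 7603 FPKM in the wildtype. *Hbb-y*, an embryonic globin, had a log2 ratio of 1.23, against 0.16 for *Car2*. The 12 neuron markers were all higher, 8 of them at least 2-fold (median 1.40, sums 246.7 and 114.0 FPKM). *Tubb3*, a neuronal tubulin, was at 99.9 and 37.0 FPKM, whereas *Car11* was at nearly the same level in both genotypes.

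Lists that were lower in the mutant, as *Car4* was, included visceral endoderm and tail bud markers. Of 12 visceral endoderm markers, 6 reached a mean of 1 FPKM, with 5 lower, 1 of them at least 2-fold, and *Afp* higher (median -0.77, sums over all 12 of 41.2 and 54.2 FPKM). Of those under that mean, *Cubn*, *Apob*, *Amn* and *Soat2* were also at least 2-fold lower, *Apoa4* was lower by less and *Hnf4a* was higher. *Ttr*, a thyroid hormone carrier, had a log2 ratio of -1.56. Of 8 tail bud markers, 7 were lower, and *Cdx2*, *Hes7* and *T* at least 2-fold (median -0.69, sums 35.5 and 53.9 FPKM). The 6 endothelial markers, set beside *Car4* for its place on capillaries, had 4 lower and 2 higher, none past 2-fold, with a median of -0.03 and sums of 74.1 and 76.5 FPKM. Of 8 muscle markers, 2 were lower (*Actc1* and *Acta1*) and 6 higher (*Myog* and *Myh3* at least 2-fold, median 0.37). The sum over all 8 was 396.4 FPKM in the mutant against 442.3 FPKM in the wildtype. Most of it was *Actc1*, at 284.3 and 338.5 FPKM, a gap wider than that of the sum. Of 5 notochord markers, 4 reached a mean of 1 FPKM (median 0.02). Among these *T*, also in the tail bud list, was at least 2-fold lower, *Foxa2* was lower by less, and *Foxj1* and *Shh* were higher. The sum over all 5 was 17.0 FPKM in the mutant against 20.8 FPKM in the wildtype. *T* alone was at 3.23 and 7.75 FPKM, a gap wider than that of the sum. No entry of these marker lists was at 0 in either genotype.

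**Figure D4:**
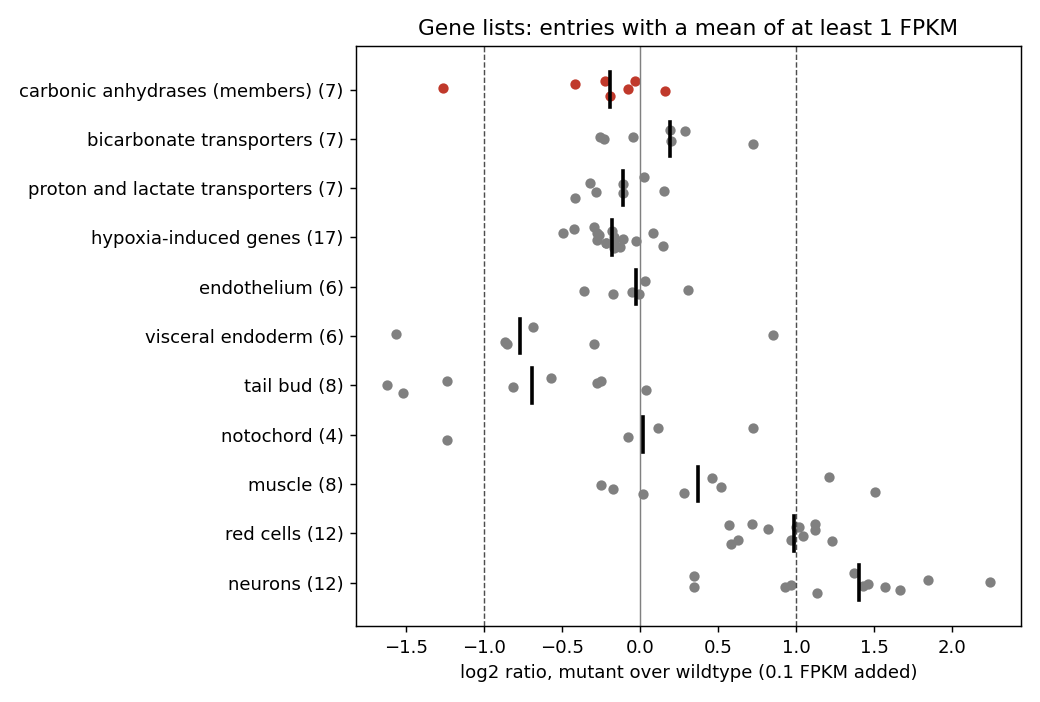
Log2 ratio of mutant over wildtype (0.1 FPKM added) for the entries of each gene list whose mean reached 1 FPKM, 1 point per entry and a black bar at the median, with the number of entries in brackets and dashed lines at 2-fold. The carbonic anhydrases, in red, have a median of -0.19 with *Car4* at -1.26, the endothelial markers centre on -0.03, and the red cell and neuron markers lie to the right of 0.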

How the data were processed

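RNA-seq values of 6 male E9.5 embryos, 3 Smchd1+/+ and 3 Smchd1MommeD1/MommeD1, grouped by the genotype in their labels, were used. According to the submitters' processing notes and the study's methods, reads of nondirectional libraries were aligned with TopHat2 2.0.6 and Bowtie2 2.0.2 to mm10, and Cufflinks and Cuffdiff, both 2.0.2, gave the expression values. The annotation release was not given in the sources used here. For each locus the authors deposited 1 FPKM value for either genotype, normalized and pooled by the authors' program, and a status per locus, an entry other than a number. Its columns of the authors' own fold change, test statistic, p-value and q-value were not used. The column of each genotype was identified from the study's own copy of the table. Loci numbered 24207, of which 135 with a failed or overloaded status and 1110 without a symbol were left out of counts.

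Log2 ratios were taken with 0.1 FPKM added, and counts were made at 2-fold over expressed loci, those whose mean of the genotypes reached 1 FPKM. The authors' program had compared the genotypes over the embryos, but no new test across embryos could be made from 1 pooled value per genotype, and the depth is unknown because FPKM values hold no counts. The ratio, the 2-fold call and a list median were tried on simulated expressed loci with planted changes well past 2-fold. That simulation had no spread between embryos, so it does not bear on values near 2-fold or under 1 FPKM. All 10 members were named, with *Smchd1*, and of each list the genes past 2-fold or the most abundant, of which some are given by count. The neighbours of *Car4*, genes sharing a locus or exons with the family and the other 6 family genes were added after their values were seen. So were single examples from the lists (*Afp*, the visceral endoderm markers under 1 FPKM, *Actc1*, *Acta1*, *Foxa2*, *Foxj1*, *Shh* and *Adm*). The entry shared by *Slc26a6* and *Celsr3* was also added then. The members and all gene lists were chosen with earlier results of these data known. Motifs were chosen after the values were seen. Alternatives were other pseudocounts, scalings, folds and filters. Python 3.11.15, numpy 2.4.6, pandas 2.3.3 and matplotlib 3.10.9 were used.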

Additional observations from a re-analysis of the deposited data

How the results depend on the processing

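With 1 pooled value per genotype, leaving out an embryo could not be done, and values under 1 FPKM rest on few reads of unknown number. No paired analysis was possible because the table has no value per embryo. A value was counted as moved when it shifted by over 0.1 on the log2 scale, a count when it changed by over 1.5 times. Of 150 alternative values, 141 did not move. That number includes the scalings, which shift a log2 value by less than 0.1 and so could not move one. It is therefore not a measure of stability. The log2 ratio of *Car4* stayed between -1.27 and -1.19, and 1 member was at least 2-fold lower and 0 at least 2-fold higher under every pseudocount, scaling and filter run for these counts, as also at 1.5-fold. Each setting was changed alone, so *Car10*, 1.59-fold lower but with a mean under 1 FPKM, was not counted at 1.5-fold. The scalings shifted log2 ratios by at most 0.04. That shift turned *Car11* (0.01) and the endothelial median (0.02) above 0 when total FPKM was set equal.

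With 1 FPKM added, the medians were 1.27 for neuron, -0.60 for visceral endoderm and -0.54 for tail bud markers, and *Car12* was at -0.32. *Car9* lay between -0.22 and -0.03 over the pseudocounts and scalings, below 0 in each but with a size set largely by the pseudocount. *Car10* ranged from -0.99 to -0.16 with the pseudocount. With a minimum mean of 0.1 FPKM, the median of bicarbonate transporters was 0.074, that of the other carbonic anhydrases 0.22, above 0 where it had been below, and that of notochord markers -0.08. These follow from the genes added or the pseudocount itself.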
